A study of Rattus norvegicus with 12 samples.

Results

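The nuclear-encoded subunits of oxidative phosphorylation were followed, complex by complex, in the livers of rats fed naproxen, NO-naproxen or a control diet. Subunits were taken by symbol: every probe set with 1 gene symbol beginning with Nduf (subunit series a, b, c, s and v), Uqcr, Cox (series 4 to 8) or Atp5, together with the 4 Sdh genes, Cyc1 and Cycs. This gave 57 genes, each with 1 probe set, out of 13215 genes with a single-symbol probe set and 19418 probe sets in all. Complex I held 19 of them (5 core and 14 accessory), complex II 4, complex III 7, complex IV 12 and complex V 14, and Cycs stood alone as cytochrome c. Complex IV included Cox6c-ps1, which its symbol marks as a pseudogene, and Cox7a2l, a factor of supercomplex assembly. Another 3 probe sets carried several symbols of which 1 matched (Atp5pd, Ndufa10 and Uqcrb) and were left out. The subunits encoded by the mitochondrial genome were represented by 0 single-symbol probe sets and were not analysed here.

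Liver RNA came from 12 Sprague Dawley rats, 4 per diet, each measured on 1 Affymetrix whole-transcript array. Diets were given for 7 days and contained naproxen at 400 mg per kg of diet, NO-naproxen at 550 mg per kg of diet, or were a control diet. Naproxen is a nonsteroidal anti-inflammatory drug that inhibits the cyclooxygenases, and NO-naproxen is naproxen joined to a group that can release nitric oxide. The labels call the 4 samples of a diet biological replicates and give neither age nor sex. RNA was from liver tissue of many cell types, so fewer cells of a type and less RNA per cell cannot be told apart in any value below.

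Oxidative phosphorylation passes electrons from NADH through complex I, or from succinate through complex II, by way of ubiquinone to complex III, cytochrome c and complex IV, which reduces oxygen. Complexes I, III and IV pump protons across the inner mitochondrial membrane, and complex V, the ATP synthase, uses their return to make ATP. Most of the subunits are encoded in the nucleus and many are regulated together by the factors NRF1 and GABP (NRF2) and by the coactivator PGC-1alpha. Hepatocytes are rich in mitochondria and depend on this pathway for gluconeogenesis, urea synthesis and fatty acid oxidation.

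Sequences just before the start of the genes were read from RefSeq promoters of build GRCr8, 250 bases each, which held 51 of the 57 subunits. They were searched on both strands for the binding motifs of NRF1 (its palindromic consensus), of the ETS family to which GABP belongs (CCGGAAG) and of YY1 (AAGATGG). NRF1's letters were found in 9 of 51 subunit promoters (17.6%) beside 4.17% of all 27457 promoters and 5.44% of the 18999 promoters of protein-coding genes. The ETS letters were found in 14 (27.5%) beside 7.74% and 9.52%, and those of YY1 in 3 (5.88%) beside 4.63% and 4.41%. By complex the ETS letters were in 3 of 5 promoters of complex III, 2 of 4 of complex II, 4 of 19 of complex I, 4 of 14 of complex V and 1 of 8 of complex IV, and NRF1's letters were in 0 of 8 of complex IV. None of the 3 was found in 29 promoters. No match of one motif overlapped a match of another, and the 2 matches of NRF1's letters in Ndufa11 overlapped each other.

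The 5 promoters below were chosen without a set rule among the subunits given with values. By exact letters Atp5me holds all 3 motifs, Ndufs1 1 of them, and Ndufv2, Cox7b and Cycs none. They are written 5′ to 3′ on the gene's strand, up to the base before the start, with motif letters in capitals on either strand. Atp5me lies at chr14:1464610-1464859 (+ strand), Ndufs1 at chr9:72073606-72073855 (- strand), Ndufv2 at chr9:113157521-113157770 (- strand), Cox7b at chrX:75148786-75149035 (+ strand) and Cycs at chr4:80984768-80985017 (- strand).
Atp5me: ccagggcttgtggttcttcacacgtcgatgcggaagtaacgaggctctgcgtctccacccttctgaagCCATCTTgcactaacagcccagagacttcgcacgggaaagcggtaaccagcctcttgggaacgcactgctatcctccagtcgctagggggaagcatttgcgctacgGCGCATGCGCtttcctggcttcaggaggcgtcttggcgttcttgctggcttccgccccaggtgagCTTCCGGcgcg
Ndufs1: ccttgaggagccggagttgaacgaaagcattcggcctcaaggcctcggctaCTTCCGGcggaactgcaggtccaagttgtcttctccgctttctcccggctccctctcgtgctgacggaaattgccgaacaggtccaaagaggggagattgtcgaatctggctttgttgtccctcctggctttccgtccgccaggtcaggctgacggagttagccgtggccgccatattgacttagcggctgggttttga
Ndufv2: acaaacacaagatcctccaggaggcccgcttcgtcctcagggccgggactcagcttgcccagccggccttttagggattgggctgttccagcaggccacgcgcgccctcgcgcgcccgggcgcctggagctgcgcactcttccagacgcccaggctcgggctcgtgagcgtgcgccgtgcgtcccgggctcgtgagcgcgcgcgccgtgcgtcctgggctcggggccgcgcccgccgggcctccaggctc
Cox7b: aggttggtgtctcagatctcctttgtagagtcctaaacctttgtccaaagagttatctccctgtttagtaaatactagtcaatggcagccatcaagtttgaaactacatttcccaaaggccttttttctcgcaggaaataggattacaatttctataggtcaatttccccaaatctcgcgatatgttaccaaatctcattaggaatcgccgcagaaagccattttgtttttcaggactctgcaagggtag
Cycs: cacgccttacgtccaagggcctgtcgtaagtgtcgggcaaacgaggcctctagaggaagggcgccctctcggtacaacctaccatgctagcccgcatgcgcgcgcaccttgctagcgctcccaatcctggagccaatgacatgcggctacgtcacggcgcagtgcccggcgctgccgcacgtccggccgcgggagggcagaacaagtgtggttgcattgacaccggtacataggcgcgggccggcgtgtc

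In the Atp5me promoter the YY1 letters lie 182 to 176 bases before the start, NRF1's 76 to 67 and the ETS letters 11 to 5, and in that of Ndufs1 the ETS letters lie 199 to 193 bases before it. Ndufv2, Cox7b and Cycs hold none of the 3 in this window by exact letters. Cycs does hold ccgcatgcgc, which differs from NRF1's consensus at its first base only and was not counted. Among the other promoters shown, Atp5me also holds a stretch a single base from the ETS letters. Ndufs1 and Cox7b each hold a stretch a single base from the YY1 letters. Near matches were not searched for, so their share among all promoters is not known. A match of letters is not a binding site, and an absent one says only that these letters are not in these 250 bases.

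The deposited values were probe set intensities on a linear scale, and all levels here are log2(intensity + 16). Array medians lay between 89.8 and 118 intensity units, and 5.87% to 11.1% of the values of an array were under the added constant of 16. The interquartile range of the log2 values was 2.10 ± 0.19 (SD, n = 4) in control arrays, 2.34 ± 0.16 (n = 4) in naproxen arrays and 2.36 ± 0.23 (n = 4) in NO-naproxen arrays. The groups overlapped, with ranges of 1.94 to 2.37, 2.20 to 2.53 and 2.07 to 2.62. The 10 hepatocyte markers were all above the background range, and their summed level was 16.29 to 16.45 in controls, 16.27 to 16.39 with naproxen and 16.31 to 16.50 with NO-naproxen. The upper end of the background range was set at 6.77, the 95th percentile of 111 olfactory and vomeronasal receptor probe sets, and 10 of the 57 subunits had a mean at or below it. These were Ndufa5, Ndufa7, Ndufb4, Ndufs5, Cox4i2, Cox6b2, Cox6c-ps1, Cox7b, Cox8b and Cox8c. With receptors listed under their newer symbols added, 970 probe sets in all, the bound was 6.44 and 7 subunits were within it; Cox7b, Cox6b2 and Ndufa7 then lay above.

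With naproxen the 57 subunits had a median log2 fold change of 0.15 against control, where all probe sets had -0.03, and 46 of the 57 lay above 0 beside 45.9% of all probe sets. None passed an adjusted p under 0.05 (limma, Benjamini-Hochberg over all probe sets), as was so for 0% of all probe sets. The smallest adjusted p among the subunits was 0.381. At an unadjusted p under 0.05 there were 3 subunits beside 12.7% of all probe sets. Ndufv2 and Ndufb8 were the 2 higher ones, beside 3.16% of all probe sets, and Cox8c the 1 lower one, beside 9.5%. The criterion stated for the study, a change of at least 1.5-fold at an unadjusted p under 0.05, was met by 0 subunits beside 5.85% of all probe sets (0.875% higher and 4.97% lower). In 4 subunits, Ndufv2, Uqcrh, Cox7a2l and Cycs, every naproxen array was above every control array, beside 2.09% of all probe sets, and in 0 every one was below, beside 2.4%. The count of 3 rested on single arrays: it was 7 without naproxen replicate 3 (8.24% of all probe sets in the same fit), 0 without naproxen replicate 2 (11.5%), 5 without control replicate 2 (24.4%), and 1 without control replicate 3 (6.43%) or control replicate 4 (5.79%).

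With NO-naproxen the median over the 57 subunits was 0.13 against 0.00 for all probe sets, and 47 of the 57 lay above 0 beside 50.1%. Again 0 subunits passed an adjusted p under 0.05 in limma, beside 0% of all probe sets, and their smallest adjusted p was 0.468. At an unadjusted p under 0.05 there were 3, Cox7b, Ndufv2 and Atp5me, all higher, beside 10.4% of all probe sets (5.49% higher and 4.86% lower). Cox7b and Ndufv2 met the study's criterion, beside 3.8% of all probe sets (1.78% higher and 2.02% lower). Ndufv2 and Ndufs1 had all NO-naproxen arrays above all controls, beside 2% of all probe sets, and 0 subunits had them all below, beside 1.35%. The count of 3 was 7 without control replicate 1 (8.94% of all probe sets in the same fit), 5 without control replicate 2 (23.3%) and 6 without NO-naproxen replicate 3 (21.8%). It was 2 without control replicate 3 (5.28%) or control replicate 4 (4.15%). Both drug diets were compared with the same 4 control arrays, so the 2 sets of values are not independent of each other. These p-values set each difference between diets against the spread among arrays of the same diet. With 1 array per rat, that spread holds differences between rats and between arrays together.

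Complex III had medians of 0.27 with naproxen and 0.17 with NO-naproxen, with 7 of 7 subunits above 0 in each. Complex I had 0.15 and 0.23, with 16 and 18 of 19 above 0. Complex II had 0.17 and 0.09, with 4 and 3 of 4 above 0. Complex V had 0.15 and 0.07, with 11 of 14 above 0 in each. Complex IV had 0.06 in both, with 7 of 12 above 0 in each. Among the 6 complex IV genes above the background range the medians were 0.11 and 0.15, with 5 of 6 above 0 in each. All probe sets had medians of -0.03 and 0.00, with 45.9% and 50.1% above 0. The brightest 3 deciles of mean level held 44 of the 57 subunits. All probe sets there had medians of 0.11 and 0.18, with 71.5% and 76.9% above 0. With naproxen the complex IV median alone was below that of these bright probe sets. With NO-naproxen the complex I median alone was above it. No complex was compared with probe sets of its own intensity. With each array left out in turn, the naproxen medians ran from 0.10 to 0.28 for complex I, 0.075 to 0.25 for complex II, 0.18 to 0.28 for complex III, 0.0094 to 0.16 for complex IV and 0.020 to 0.18 for complex V. The low ends of complexes II and V came without control replicate 2, those of complexes I and III without naproxen replicate 2 and that of complex IV without naproxen replicate 1, and all 5 high ends came without naproxen replicate 3. With NO-naproxen the medians of complexes II and V did not keep their sign: they were -0.06 and -0.05 after quantile normalization, -0.02 and -0.11 with array weights, and -0.01 and -0.04 without control replicate 2. The difference between complexes was not tested.

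**Figure D1:**
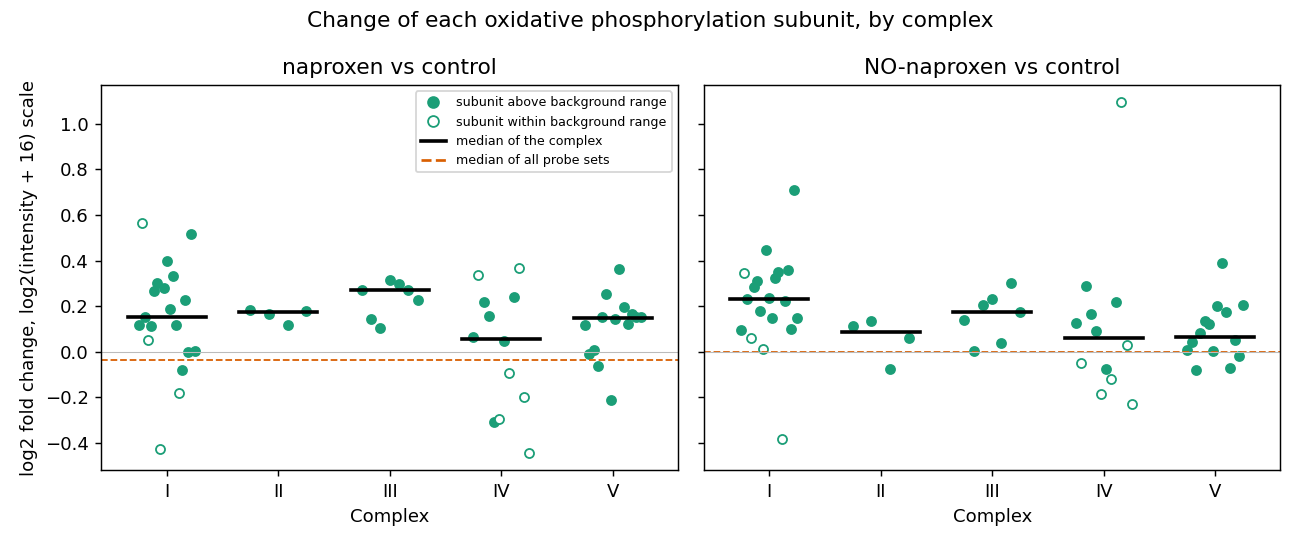
Log2 fold change of each subunit against control on the log2(intensity + 16) scale, by complex, for naproxen (left) and NO-naproxen (right). Filled points are subunits above the background range, open points those within it, black bars complex medians and the dashed line the median of all probe sets. Complex III is the one complex with every subunit above 0 in both panels, and the open points of complex IV lie on both sides of 0. Of all probe sets in the brightest 3 deciles of mean level, 71.5% (naproxen) and 76.9% (NO-naproxen) lie above 0.

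Taken as the mean level of its subunits in each array, no complex separated a drug diet from control. The complex III mean was 9.87, 9.80, 9.90 and 9.83 in controls, 10.10, 10.23, 9.90 and 10.12 with naproxen, and 9.79, 10.21, 10.02 and 10.01 with NO-naproxen (replicates 1 to 4). Naproxen replicate 3 reached down to the controls, and NO-naproxen replicate 1 lay below them. Naproxen replicate 3 was the lowest of its group in all 5 complexes and also had the lowest mean over all probe sets, 6.97 against 7.11 to 7.25 in the other naproxen arrays. The complex I mean was 8.23 ± 0.11 (SD, n = 4) in controls, 8.39 ± 0.14 (n = 4) with naproxen and 8.45 ± 0.15 (n = 4) with NO-naproxen. The groups overlapped, although control replicate 1 at 8.38 was the single control array that reached the NO-naproxen range of 8.33 to 8.65. The complex V means were 9.83 ± 0.17 (n = 4), 9.94 ± 0.15 (n = 4) and 9.92 ± 0.18 (n = 4) in the same order, a difference within the spread of a group.

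**Figure D2:**
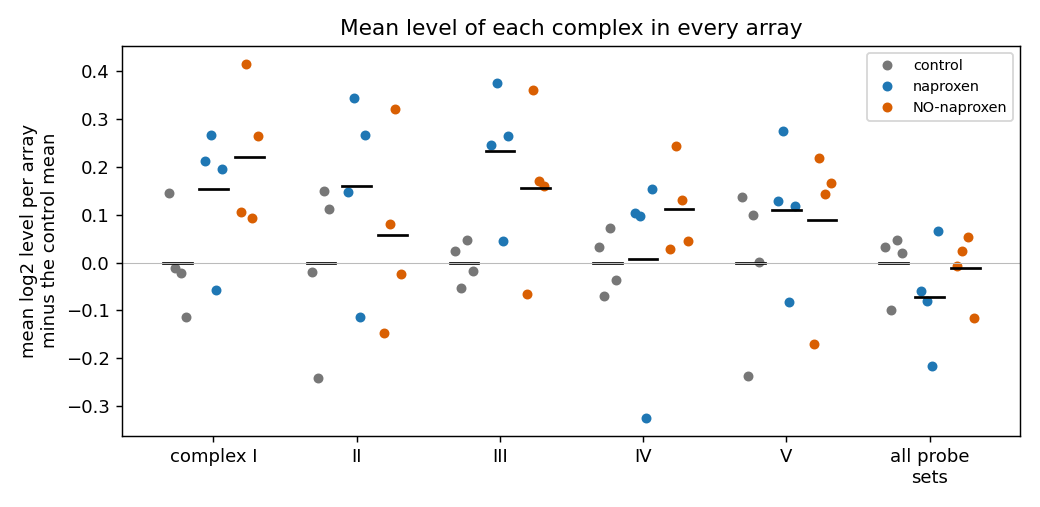
Mean log2 level of each complex in every array minus the control mean of that complex, with all probe sets at the right; points are single livers, 4 per diet, and black bars group means. The groups overlap in each complex, and the lowest naproxen point in every complex is replicate 3.

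Complex I takes electrons from NADH through a flavin and a chain of iron-sulfur clusters held by its core subunits. Ndufv2, an iron-sulfur core subunit of the NADH-binding module, measured 8.94, 9.0, 8.77 and 8.56 in controls. It measured 9.37, 9.49, 9.15 and 9.32 with naproxen and 9.64, 10.04, 9.17 and 9.24 with NO-naproxen. Every drug array was above every control array, so the groups were separate for both diets. The log2 fold change was 0.52 ± 0.20 (SE, n = 4 per diet; limma adjusted p = 0.381) with naproxen. With NO-naproxen it was 0.71 ± 0.20 (limma adjusted p = 0.468), or 1.63-fold. With the interquartile range of each array as a covariate the values were 0.28 and 0.46.

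Ndufs1, the largest core subunit and the carrier of several iron-sulfur clusters, measured 10.42, 10.46, 10.43 and 10.56 in controls. With naproxen it measured 10.96, 10.91, 10.44 and 10.88, and with NO-naproxen 10.76, 10.84, 10.86 and 10.69. All NO-naproxen arrays were above the controls, and 3 of the 4 naproxen arrays were, replicate 3 lying among the controls. The log2 fold changes were 0.33 ± 0.16 and 0.32 ± 0.16 (SE; limma adjusted p = 0.394 and 0.468). Over the 5 core subunits (Ndufs1, Ndufs7, Ndufs8, Ndufv1 and Ndufv2) the median was 0.23 with naproxen, 4 of 5 above 0, and 0.32 with NO-naproxen, 5 of 5 above 0. Ndufv1, which carries the flavin, had 0.00 ± 0.18 and 0.10 ± 0.18. Ndufs7, at the ubiquinone end of the cluster chain, had -0.08 ± 0.25 and 0.22 ± 0.25, with control replicate 1 at 9.73 well above the other controls at 8.38 to 8.81.

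The 14 accessory subunits, which surround the core and are needed for its assembly and stability, had medians of 0.14 with naproxen (12 above 0) and 0.21 with NO-naproxen (13 above 0). Ndufb8, in the distal membrane arm, measured 8.98, 9.0, 8.67 and 8.90 in controls, 9.25, 9.70, 8.88 and 9.31 with naproxen, and 8.86, 9.27, 9.16 and 9.19 with NO-naproxen. Naproxen replicate 3 again lay among the controls while the other naproxen arrays lay above them. The log2 fold changes were 0.40 ± 0.18 (limma adjusted p = 0.392) and 0.23 ± 0.18 (adjusted p = 0.552). Ndufb7 had 0.28 ± 0.22 and 0.44 ± 0.22, and Ndufs4, an accessory subunit whose loss causes severe complex I deficiency, had 0.12 ± 0.17 and 0.35 ± 0.17. Ndufb4 had -0.43 ± 0.22 with naproxen and Ndufs5 had -0.38 ± 0.23 with NO-naproxen. Both of these probe sets lay within the background range, where levels carry little signal.

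Complex II is succinate dehydrogenase, the enzyme shared by the citrate cycle and the respiratory chain. Its 4 subunits had log2 fold changes between 0.12 and 0.18 with naproxen and between -0.08 and 0.13 with NO-naproxen. Sdha, the flavoprotein, measured 10.62, 10.19, 10.88 and 10.78 in controls, 10.70, 11.07, 10.53 and 10.90 with naproxen, and 10.49, 10.67, 11.05 and 10.72 with NO-naproxen. The 3 groups overlapped almost wholly, with differences of 0.18 ± 0.19 and 0.11 ± 0.19. Sdhb, the iron-sulfur subunit, had 0.17 ± 0.17 and 0.13 ± 0.17. The membrane anchors Sdhc and Sdhd had 0.12 ± 0.18 and 0.18 ± 0.15 with naproxen, and -0.08 ± 0.18 and 0.06 ± 0.15 with NO-naproxen.

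Complex III passes electrons from ubiquinol to cytochrome c through cytochrome b, the Rieske protein and cytochrome c1. Uqcrh, the hinge protein that helps cytochrome c1 meet cytochrome c, measured 9.47, 9.57, 9.30 and 9.46 in controls, 9.89, 9.64, 9.73 and 9.62 with naproxen, and 9.38, 9.94, 9.50 and 10.19 with NO-naproxen. The naproxen arrays were all above the controls and the NO-naproxen arrays were not. The log2 fold changes were 0.27 ± 0.18 (limma adjusted p = 0.510) and 0.30 ± 0.18 (adjusted p = 0.484). Uqcrc2, a core protein, measured 10.08, 9.94, 10.17 and 9.88 in controls and 10.42, 10.46, 9.97 and 10.48 with naproxen, a difference of 0.32 ± 0.19. Uqcrfs1, the Rieske iron-sulfur protein, had 0.30 ± 0.18 with naproxen and 0.04 ± 0.18 with NO-naproxen. Cyc1, cytochrome c1, had 0.27 ± 0.17 and 0.14 ± 0.17, and Uqcrc1 0.10 ± 0.15 and 0.21 ± 0.15. Within complex III the lowest value was that of Uqcr11 with NO-naproxen, 0.00 ± 0.15.

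Cycs, the mobile carrier between complexes III and IV and also a trigger of apoptosis when it leaves the mitochondrion, measured 7.09, 7.04, 6.98 and 7.25 in controls. It measured 7.44, 7.52, 7.31 and 8.13 with naproxen and 7.48, 7.68, 7.22 and 6.43 with NO-naproxen. Every naproxen array was above every control, with replicate 4 far above the other 3, whereas NO-naproxen replicate 4 was below every control. The log2 fold changes were 0.51 ± 0.25 (limma adjusted p = 0.396) and 0.11 ± 0.25 (adjusted p = 0.830). Without naproxen replicate 4 the first was 0.33, and without NO-naproxen replicate 2 the second was -0.046.

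Complex IV, cytochrome c oxidase, contains catalytic subunits made in the mitochondrion and a shell of nuclear subunits, several of which exist as tissue isoforms. Of the forms used in liver, Cox4i1 had 0.07 ± 0.14 with naproxen and 0.12 ± 0.14 with NO-naproxen, Cox5b 0.22 ± 0.19 and 0.29 ± 0.19, and Cox6a1 0.16 ± 0.16 and 0.17 ± 0.16. Cox6c had 0.05 ± 0.22 and -0.08 ± 0.22. Cox7a2l measured 9.21, 9.18, 9.15 and 9.23 in controls, 9.27, 9.59, 9.31 and 9.56 with naproxen, and 9.24, 9.62, 9.58 and 9.19 with NO-naproxen. The naproxen arrays were all above the controls, by 0.04 at the closest, and the difference was 0.24 ± 0.16 (limma adjusted p = 0.502).

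Cox7b, a small membrane subunit needed for assembly of the complex, measured 6.26, 6.61, 5.40 and 5.89 in controls, 6.76, 6.48, 6.11 and 6.28 with naproxen, and 7.55, 7.48, 6.46 and 7.03 with NO-naproxen. All 4 control arrays were within the background range, so the values below are differences from a level near background and not a fold change of Cox7b expression. NO-naproxen replicate 3 lay below the highest control, so the groups overlapped. The difference was 1.09 ± 0.27 with NO-naproxen (limma adjusted p = 0.468) and 0.37 ± 0.27 with naproxen (adjusted p = 0.543). With the interquartile range of each array as a covariate the NO-naproxen value was 0.62 and the naproxen value -0.066, so the latter has no settled direction.

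Several complex IV genes are isoforms typical of other tissues. Cox8c, a testis isoform, measured 6.58, 5.90, 6.67 and 6.67 in controls, 6.13, 6.01, 5.85 and 6.06 with naproxen, and 6.36, 5.98, 6.48 and 6.07 with NO-naproxen. Control replicate 2 was as low as the naproxen arrays, and the log2 fold change with naproxen was -0.44 ± 0.19 (limma adjusted p = 0.388), or -0.22 with the interquartile range as a covariate. Cox6b2, also of testis, had -0.29 ± 0.15 and -0.19 ± 0.15, and Cox4i2, of lung, 0.34 ± 0.18 and -0.05 ± 0.18. Cox8b, of heart and muscle, had -0.20 ± 0.30 and 0.03 ± 0.30. The muscle isoform Cox6a2 measured 5.36 in naproxen replicate 3 and 6.74 to 7.21 in the other control and naproxen arrays, and its log2 fold change with naproxen was -0.31 ± 0.30, or 0.099 without that array. Except for Cox6a2, these probe sets lay within the background range, so their differences are those of values near the receptors' level.

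Complex V consists of the catalytic F1 head, the membrane ring of c subunits, and the stalk and membrane proteins that join them. The 5 head genes (Atp5f1a to Atp5f1e) had medians of 0.01 with naproxen and 0.04 with NO-naproxen. Atp5f1b, the catalytic beta subunit, measured 12.57, 12.00, 12.64 and 12.57 in controls, 12.33, 12.70, 12.17 and 12.54 with naproxen, and 12.28, 12.45, 12.70 and 12.52 with NO-naproxen. The groups lay on top of each other, with differences of -0.01 ± 0.19 and 0.04 ± 0.19. Atp5f1c, the gamma subunit of the rotating shaft, had 0.01 ± 0.19 and -0.08 ± 0.19. The 6 stalk and membrane genes had medians of 0.16 (6 of 6 above 0) and 0.11 (4 of 6 above 0). Atp5po, the OSCP subunit at the top of the outer stalk, had 0.15 ± 0.17 and 0.20 ± 0.17.

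Atp5me, the small membrane subunit e that takes part in dimer formation, measured 8.94, 8.80, 8.44 and 8.57 in controls. It measured 9.30, 9.05, 9.07 and 8.79 with naproxen and 9.05, 9.25, 8.76 and 9.24 with NO-naproxen. In each drug group 1 array lay below the highest control and the other 3 lay above it. The log2 fold changes were 0.37 ± 0.18 (limma adjusted p = 0.400) and 0.39 ± 0.18 (adjusted p = 0.468), and both were 0.17 with the interquartile range as a covariate. Of the 2 c-ring genes, Atp5mc2 had -0.21 ± 0.17 and 0.00 ± 0.17, and Atp5mc3 0.14 ± 0.18 and 0.20 ± 0.18. Atp5if1, the inhibitor that stops the enzyme from hydrolysing ATP when the proton gradient collapses, had 0.25 ± 0.19 and 0.12 ± 0.19. No complex V gene was separate from control in either diet.

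**Figure D3:**
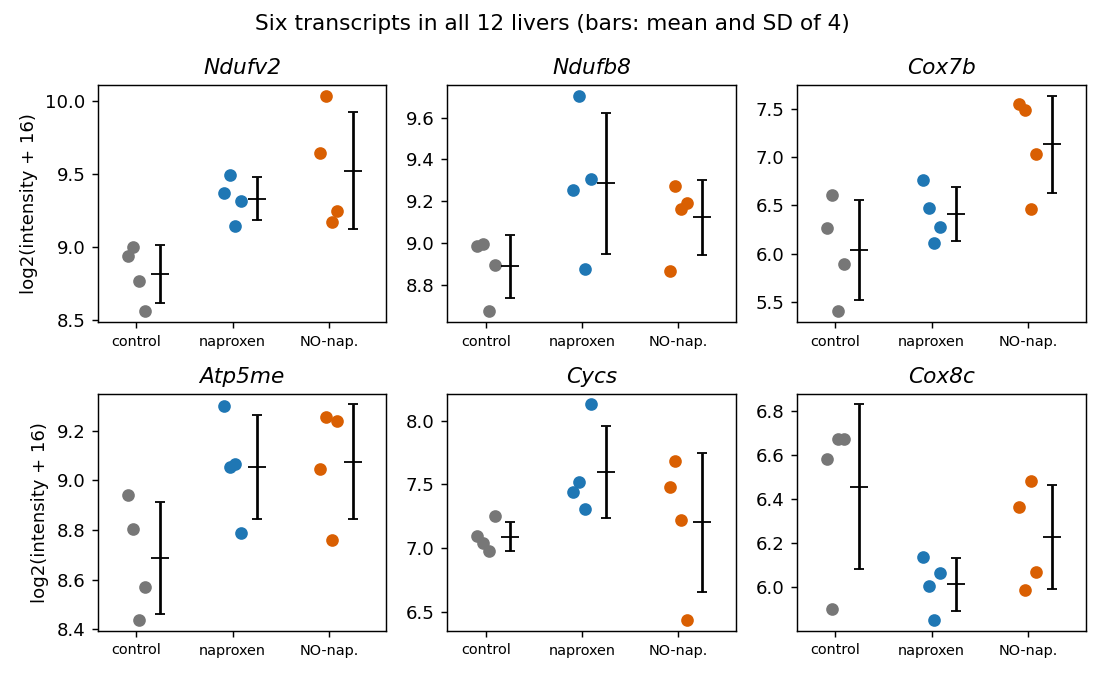
Level, as log2(intensity + 16), of 6 subunits in each of the 12 livers; points are single livers and bars the mean with SD of 4. Ndufv2 is above all controls in both drug diets, and the NO-naproxen points of Cox7b lie highest but overlap its controls.

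The 2 drugs were given at unequal amounts in the diet, 400 and 550 mg per kg, so their difference is that between these diets and not between equal doses. NO-naproxen against naproxen gave a median of -0.01 over the subunits where all probe sets had 0.06, and 28 of 57 lay above 0 beside 64.1% of all probe sets. None passed an adjusted p under 0.05 in limma, beside 0% of all probe sets. At an unadjusted p under 0.05 there were 2, beside 1.92% of all probe sets (1.28% higher and 0.644% lower). Cox7b was higher with NO-naproxen, 0.73 ± 0.27 (adjusted p = 1.00), and Cox4i2 lower, -0.39 ± 0.18 (adjusted p = 1.00). Cox7b alone met the study's criterion, beside 0.572% of all probe sets (0.427% higher and 0.144% lower), and 0 subunits had groups that did not overlap, beside 0.644% of all probe sets separate and higher and 0.525% separate and lower. The count of 2 was 0 without NO-naproxen replicate 1 (1.43% of all probe sets in the same fit), and 1 without NO-naproxen replicate 3 (3.96%), naproxen replicate 2 (1.85%) or naproxen replicate 4 (3.75%). The count of 1 for the criterion was 0 without NO-naproxen replicate 1, NO-naproxen replicate 2 or naproxen replicate 3. By complex the medians were 0.08 (I), -0.10 (II), -0.09 (III), 0.06 (IV) and -0.02 (V). All 4 complex II subunits and 5 of the 7 complex III subunits were below 0. After quantile normalization the medians of complexes I and IV were -0.01 and -0.02, and those of complexes IV and V and of all subunits changed sign without 1 or more of the drug arrays, so values this near 0 have no direction.

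Most subunits had probe sets of high intensity, and in these arrays the difference from control moved with intensity. Probe sets were ordered by their mean over all arrays and divided into deciles. With naproxen the median of all probe sets was -0.21 in decile 3 and 0.15 in decile 9, and with NO-naproxen -0.15 and 0.22. The brightest 3 deciles held 44 of the 57 subunits. In them 40 of 44 subunits (90.9%) lay above 0 with naproxen beside 71.5% of all 5826 probe sets, and 39 of 44 (88.6%) with NO-naproxen beside 76.9%. The medians there were 0.15 for the subunits and 0.11 for all probe sets with naproxen, and 0.16 and 0.18 with NO-naproxen. The subunits' median thus exceeded that of all probe sets by 0.19 over the whole range but by 0.04 among bright probe sets with naproxen, and by 0.13 over the whole range but by -0.02 among bright ones with NO-naproxen. Quantile normalization, which gives all arrays 1 distribution, gave a median over the subunits of 0.09 with naproxen and 0.02 with NO-naproxen, with 33 of 57 above 0 in the latter. With each array's interquartile range as a covariate the subunits' medians were 0.16 with naproxen, 44 of 57 above 0, and 0.17 with NO-naproxen, 50 of 57 above 0. Without the 2 arrays of narrowest spread, control replicates 3 and 4, they were 0.16 (45 above 0) and 0.14 (50 above 0).

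**Figure D4:**
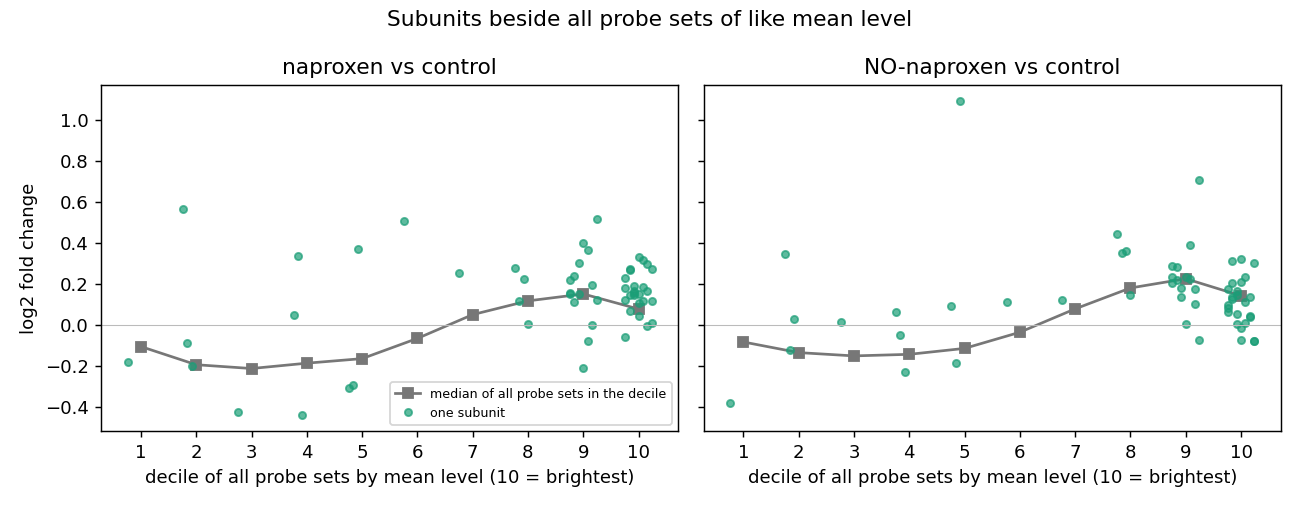
All probe sets were divided into deciles of mean level (10 is the brightest), and the median log2 fold change of each is drawn with the single subunits over it, for each drug diet against control. The median of all probe sets is below 0 in the dim deciles and above 0 in the bright ones, where 44 of the 57 subunits lie.

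Genes that build, regulate or feed the respiratory chain were counted from lists, and again 0 passed an adjusted p under 0.05 in limma. Among all probe sets 45.9% lay above 0 with naproxen and 50.1% with NO-naproxen, and 3.16% and 5.49% were higher at an unadjusted p under 0.05. Of all probe sets in the brightest 3 deciles, 71.5% and 76.9% lay above 0, with medians of 0.11 and 0.18. The lists were not compared with probe sets of like intensity. Of 25 assembly factors, 18 (72%) lay above 0 with naproxen (median 0.07) and 21 (84%) with NO-naproxen (0.17), and 2 and 1 were higher at an unadjusted p under 0.05. Ecsit, a complex I assembly factor, had 0.42 ± 0.17 and 0.47 ± 0.17. Of 24 regulators of mitochondrial biogenesis and genome maintenance, 22 lay above 0 with naproxen (median 0.19) and 19 with NO-naproxen (0.24), with 2 and 3 higher at an unadjusted p under 0.05. The 52 mitochondrial ribosomal protein genes, whose ribosome makes the subunits encoded in the mitochondrion, had medians of 0.17 and 0.23, with 46 and 44 above 0 and 6 higher in each comparison at an unadjusted p under 0.05.

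Ppargc1a, which encodes PGC-1alpha, had the largest log2 fold changes in these 3 lists. It measured 8.57, 8.49, 7.16 and 7.87 in controls, 9.05, 9.02, 9.57 and 8.81 with naproxen, and 8.65, 9.63, 8.68 and 9.11 with NO-naproxen. Every drug array was above every control, by 0.24 and 0.09 at the closest, and control replicates 3 and 4 were the low ones. The log2 fold changes were 1.09 ± 0.30 (limma adjusted p = 0.381) and 0.99 ± 0.30 (adjusted p = 0.468). Those 2 control arrays were also the 2 of narrowest spread among all 12, and without them the values were 0.59 and 0.49. Of the 24 regulators 2 were separate from control and higher with naproxen and 1 with NO-naproxen, beside 2.09% and 2% of all probe sets.

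Ppara, the fatty acid receptor that works with PGC-1alpha, had 0.44 ± 0.25 and 0.67 ± 0.25 (limma adjusted p = 0.442 and 0.468). Nrf1 had 0.23 ± 0.21 (-0.043 with the interquartile range as a covariate) and 0.44 ± 0.21. Gabpa, the DNA-binding part of GABP, had 0.16 ± 0.22 and 0.29 ± 0.22. Tfam, which packs the mitochondrial genome and takes part in its transcription, had 0.32 ± 0.23 and 0.14 ± 0.23. Esrra, the usual partner of PGC-1alpha on respiratory genes, had -0.13 ± 0.20 and 0.11 ± 0.20. None of these passed the adjusted threshold, and of them Ppara with NO-naproxen alone met the study's criterion. Ppargc1a met it in both comparisons. Of the 24 regulators 1 met it with naproxen and 2 with NO-naproxen, beside 5.85% and 3.8% of all probe sets.

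Of 15 citrate cycle genes, 13 and 12 lay above 0, with medians of 0.09 in each comparison. Cs, citrate synthase, measured 8.74, 8.79, 8.74 and 8.68 in controls, 8.81, 9.11, 9.07 and 9.07 with naproxen, and 9.0, 9.40, 9.03 and 8.99 with NO-naproxen. All drug arrays were above all controls, and the log2 fold changes were 0.28 ± 0.15 and 0.37 ± 0.15 (limma adjusted p = 0.439 and 0.468). Among all probe sets 2.09% and 2% were separate and higher in this way. Dlat had the smallest p of the list with naproxen and was lower, -0.45 ± 0.22 (limma adjusted p = 0.398). With NO-naproxen its value was -0.24. Dlat measured 7.47, 7.31, 8.03 and 7.20 in controls and 7.06, 7.13, 6.86 and 7.19 with naproxen. All its naproxen arrays were below all controls, beside 2.4% of all probe sets. The 15 uncoupling and antioxidant genes had medians of 0.09 and 0.16. Among them Ucp2 had 0.44 ± 0.20 and 0.23 ± 0.20, and Ucp3 -0.49 ± 0.23 and -0.48 ± 0.23.

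The 13 glycolysis genes lay on the other side of 0, with medians of -0.19 and -0.20 and 1 and 3 above 0. At an unadjusted p under 0.05 there were 4 lower with naproxen, beside 9.5% of all probe sets, and 1 with NO-naproxen, beside 4.86%. Pklr, the liver pyruvate kinase, measured 12.02, 11.87, 12.34 and 12.23 in controls, 11.77, 11.51, 11.90 and 11.59 with naproxen, and 11.65, 12.05, 11.72 and 11.74 with NO-naproxen. Its groups overlapped, with log2 fold changes of -0.43 ± 0.17 (limma adjusted p = 0.381) and -0.33 ± 0.17 (adjusted p = 0.468). The 25 cytosolic ribosomal protein genes had medians of 0.06 and 0.07.

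**Figure D5:**
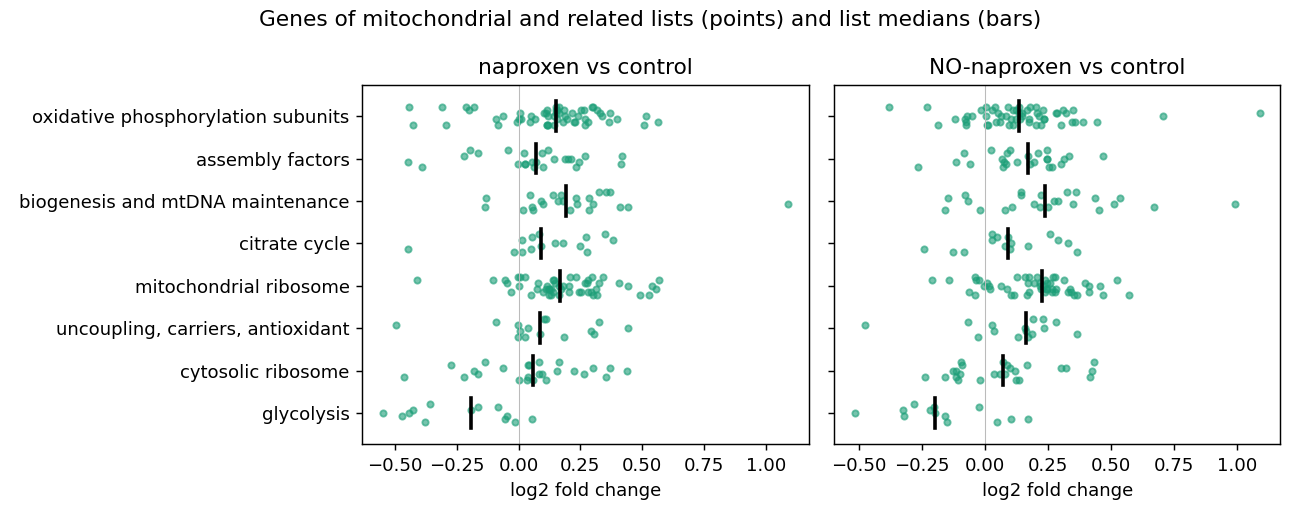
Log2 fold change of each gene of the mitochondrial lists, of glycolysis and of the cytosolic ribosome (points) with list medians (bars), for both drug diets against control. The medians of the mitochondrial lists lie between 0.07 and 0.24 and those of glycolysis at -0.19 and -0.20.

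Markers of other liver cells were read from the same arrays. Only listed markers with a single-symbol probe set could be counted. The 11 macrophage and Kupffer cell markers were above 0 in 11 of 11 cases with naproxen (median 0.22) and 9 of 11 with NO-naproxen (0.28), and their summed level was 12.16 to 12.68 in controls, 12.35 to 12.84 with naproxen and 12.42 to 13.07 with NO-naproxen. The 3 endothelial markers summed to 9.62 to 10.13 in controls, 10.21 to 10.34 with naproxen and 9.97 to 10.32 with NO-naproxen. The naproxen range of this sum thus lay above the controls. Of these 3 markers 1 was itself separate and higher in each comparison with control, beside 2.09% and 2% of all probe sets. The 7 stellate cell markers had medians of 0.23 and 0.18, and summed to 11.24 to 11.83, 11.54 to 11.98 and 11.60 to 12.03. The 5 striated muscle markers, for the tissue whose isoforms are among the complex IV genes, had medians of -0.03 and -0.05. Of 5 lymphocyte markers 1 was above the background range and 4 within it; their medians were -0.37 (1 of 5 above 0) and -0.04 (2 of 5 above 0), and they summed to 8.97 to 9.16, 8.85 to 9.29 and 8.94 to 9.54. The 1 red cell marker, Slc4a1, had 0.02 ± 0.20 and 0.06 ± 0.20. The 3 cholangiocyte and 4 neutrophil markers were all within the background range. The part of these cells in the subunits' values was not tested.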

How the data were processed

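Liver RNA of 12 rats was put on Affymetrix whole-transcript arrays after depletion of ribosomal RNA, as the labels' protocols describe. The authors deposited 1 intensity per probe set and array on a linear scale, 19418 per array. The submitters' processing notes name Affymetrix Expression Console 1.1.1 and rn4; how probe sets were summarised and normalized is not stated there. The number of arrays, 4 per diet, limits the precision.

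From these values log2(intensity + 16) was computed, which understates the change of dim probe sets. The platform annotation gave 1 symbol to 13327 probe sets, several to 620 and none to 5471. All 57 subunits were matched in the RefSeq table by Entrez identifier, and 0 symbols changed. The arrays and that table use different builds, so coordinates are given for RefSeq promoters of GRCr8 only.

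The 3 diets were fitted together with limma 3.58.1 in R 4.3.3 (lmFit, then eBayes; 2-sided), and p-values were adjusted by Benjamini-Hochberg over all probe sets. The step was tested on simulated data. The study's criterion was read from this fit; which test the authors used for it is not stated. Lists and complexes are described by counts and medians without a test. Marker levels are the log2 of summed intensities. The members, the lists and the tests were chosen with earlier results of these data known. Subunits named with values are those at an unadjusted p under 0.05, the 2 with the smallest p in each complex and comparison with control, the lowest of each complex, the tissue isoforms, Cyc1, Cycs and Atp5if1. From each other list the 2 genes with the smallest p were eligible. Ndufb7, Ndufs4, Ndufs7, Ndufv1, Cox6c, Atp5f1b, Atp5mc3, Uqcr11, Nrf1, Gabpa, Tfam and Esrra were named after their values were seen.

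Alternatives were quantile normalization, median centring, array weights, constants of 1 and 64, and a trended and robust spread. Others were fits of the compared groups alone, omission of the dimmest 30% of probe sets, and each array's interquartile range as a covariate. Further ones were omission of the 2 arrays of narrowest spread or of each array in turn, and the replicate number as a block. A wider list of receptors was added after seeing the data. Plots were made with matplotlib 3.10.9 (Python 3.11.15).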

Additional observations from a re-analysis of the deposited data

Results flagged for a closer look

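A single array stood apart from the other 3 of its diet in 12 of 186 groups examined (the gap to the nearest of the others, over the range of the group, was above Dixon's critical value at the 95% level for 4 arrays); chance gives about 1 in 20. Naproxen replicate 3 was the low array for the complex IV mean (7.39 against 7.81 to 7.87), for Ndufs1 (10.44 against 10.88 to 10.96) and for Uqcrc2 (9.97 against 10.42 to 10.48). Control replicate 2 was low for Cox8c (5.90), Sdhd (10.26) and Ucp3 (7.19) and high for Esrra (7.61). Cox6a1 was high in control replicate 1 (10.89), and Cox5b was high in NO-naproxen replicate 2 (9.21). For Cs, naproxen replicate 1 was low (8.81) and NO-naproxen replicate 2 was high (9.40). Mrps15, a protein of the small mitochondrial ribosomal subunit, was high in naproxen replicate 1 (8.22).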

How the results depend on the processing

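No subunit passed an adjusted p under 0.05 (limma) in the 3 comparisons under any of the 19 alternatives run for each. At an unadjusted p under 0.05 the naproxen count of 3 was 11 after median centring (13.6% of all probe sets in that fit), 6 with a constant of 64 (12.3%), 9 with array weights (19.7%) and 5 with the interquartile range as a covariate (5.63%); the NO-naproxen count of 3 was 5 (12.6%), 6 (11.4%) and 6 (30.6%) under the first 3 of these. The count of 2 for NO-naproxen against naproxen was 1 with a trended and robust spread (1.80%) and with the replicate block (1.92%), and 4 with array weights (5.92%). For the study's criterion, the naproxen count of 0 was 2 after quantile normalization, 3 after median centring and 1 with array weights; the NO-naproxen count of 2 was 1 after quantile normalization and without the 2 arrays of narrowest spread; and the count of 1 between the drugs was 0 after quantile normalization and with a constant of 64. With each array left out in turn, the unadjusted counts ran from 0 to 7, 2 to 7 and 0 to 3, and those of the criterion from 0 to 2, 2 to 3 and 0 to 1. In the main fits 5.85%, 3.8% and 0.572% of all probe sets met the criterion. That share was not computed under the alternatives, so the criterion counts there have no like share beside them. The NO-naproxen median was 0.031 for complex III after quantile normalization and -0.11 for complex V with array weights, and between the drugs the complex III median was -0.22 with array weights. Over all subunits the medians ran from 0.09 to 0.27 with naproxen and from 0.02 to 0.20 with NO-naproxen, with at least 41 and 30 of 57 above 0. Median centring moved the median of all probe sets with naproxen from -0.03 to 0.08. The cause of these movements was not tested. Averaging over a gene's probe sets was not run, since each subunit has 1. Same-numbered arrays of 2 diets correlated between -0.38 and 0.48 in their deviations from the group means and differently numbered ones between -0.71 and 0.60. These ranges show no pairing by number, and with so few arrays they cannot exclude it. The replicate block gave unadjusted counts of 3, 3 and 1, and 0 adjusted calls. Signal over background limits the 10 subunits within the background range.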
